A study of Homo sapiens with 2 samples.

Results

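The IL6 and JAK-STAT3 signalling genes are 10 genes of 1 cytokine pathway: the ligand gene IL6, the receptor genes IL6R and IL6ST, the kinase genes JAK1, JAK2 and TYK2, the transcription factor gene STAT3, the inhibitor genes SOCS3 and PIAS1, and the phosphatase gene PTPN11. Their mERG peaks were selected as the entries of the peak list whose gene name is 1 of these 10 symbols. At least 1 peak named 3 of the 10 genes, PIAS1, PTPN11 and IL6R, and together these held 21 of the 18070 peaks in the list. Over all genes with a curated RefSeq transcript, 16.6% (4992 of 29989; Wilson 95% interval 16.2 to 17.1%) were named by at least 1 peak, and over the protein-coding genes 21% (4088 of 19443) were. Weighted to the gene lengths of the 10 members, the share of protein-coding genes was 29.2%, so that 3 of 10 is close to this background.

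The experiment was ChIP-seq in VCaP, an established line of prostate cancer cells in which the TMPRSS2-ERG fusion drives expression of the ETS factor ERG. One library came from chromatin precipitated with anti-mERG, a rabbit polyclonal antibody raised against an ERG peptide that carries a single methyl group on a lysine, and the other was its control. The control is titled as input while its antibody is given as anti-IgG, so its kind is not settled here. Both came from cells kept in regular growth medium, with chromatin cut to about 200 bp and reads of 75 bp. With 1 mERG library and 1 control there is no replicate, so no difference between peaks could be set against a replicate error, and the read depth is unknown from the peak list. The score given for each peak is the MACS score assigned by the authors, which rises as the MACS p-value falls and is compared here only within this list.

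IL6 is a secreted cytokine that binds IL6R, and the pair then engages the signal-transducing receptor IL6ST. The Janus kinases bound to IL6ST phosphorylate it and the latent transcription factor STAT3, which forms dimers, enters the nucleus and binds DNA, while SOCS3, PIAS proteins and tyrosine phosphatases limit or redirect the signal. In prostate cancer this pathway is known for its links with androgen receptor activity and with advanced disease.

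No mERG peak was named for the ligand gene IL6, which spans 6.12 kb at chr7:22765503-22771621 (hg19). The nearest peak of any name was centred 84.9 kb downstream of the IL6 start, was named for TOMM7 and had a score of 39.2. In the gene and 500 kb on either side there were 3 peaks, or 3 per Mb in the flanks, beside 8.45 per Mb over chromosome 7 and 5.83 per Mb over the genome. IL6 is short, and among protein-coding genes under 20 kb 8.07% (644 of 7980) were named by a peak. Of the members, 2 were in this length class, IL6 and SOCS3, and 0 of them were named. The IL6 promoter is shown to set its letters beside the peak sequences, with the ETS core letters GGAA, or TTCC where they lie on the other strand, in capitals (chr7:22726950-22727249 of GRCh38.p14, plus strand, RefSeq).
IL6 promoter: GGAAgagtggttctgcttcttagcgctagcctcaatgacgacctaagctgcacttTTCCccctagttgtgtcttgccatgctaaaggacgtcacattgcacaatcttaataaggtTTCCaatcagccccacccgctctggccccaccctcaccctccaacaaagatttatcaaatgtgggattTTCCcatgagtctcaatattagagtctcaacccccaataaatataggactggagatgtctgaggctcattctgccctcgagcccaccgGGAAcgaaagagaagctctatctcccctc
The letters GGAA occurred 5 times on the 2 strands of these 300 bases. They are common at promoters: 95.5% of the 35116 RefSeq promoters of this length held at least 1 copy, as did those of 8 of the 9 members with an entry in the promoter table (all members except PTPN11, which had no entry; TYK2 had no copy). The longer ETS core CCGGAAGT, with up to 1 mismatch outside GGAA, was found in the promoters of JAK1 and SOCS3, beside 18.7% of all promoters. The STAT site TTCNNNGAA was in 0 of the 9 member promoters and in 7.66% of all promoters.

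Among the receptor genes, IL6R, which encodes the subunit that binds IL6, was named by 1 peak and IL6ST by none. The IL6R peak lay at chr1:154404184-154404727 (hg19), inside intron 3 of 9 and 26.8 kb downstream of the TSS. Its score was 59.4, higher than that of 86.7% of all peaks. The annotation put its centre on a MER44D element, a DNA transposon relic. The central 201 bases of this peak are printed because it is the single peak named for the receptor, with GGAA and TTCC in capitals (chr1:154404355-154404555, hg19, plus strand).
IL6R peak: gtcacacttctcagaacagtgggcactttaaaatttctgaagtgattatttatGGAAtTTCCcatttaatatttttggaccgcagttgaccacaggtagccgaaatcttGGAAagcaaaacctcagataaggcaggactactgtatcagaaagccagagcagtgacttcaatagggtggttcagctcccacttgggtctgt
This window held 3 copies of GGAA on both strands together and a STAT site TTCNNNGAA, which 7.14% of all peak windows also held. It did not hold the ETS core CCGGAAGT. Another 2 peaks lay inside the IL6R gene but were named for the neighbouring gene SHE: one in intron 9 with a score of 41.0, on an LTR13A repeat, and one at the end of the last exon with a score of 43.7. Counted by position, IL6R (64.3 kb) therefore held 3 peaks, or 46.7 per Mb of gene. Its flanks held 20 peaks, or 20 per Mb, 13 of them named for ADAR with a highest score of 142, while chromosome 1 as a whole held 4.77 per Mb. The density inside IL6R was higher than in 88.2% of the 6470 protein-coding genes of at least 50 kb, and among the 39.8% of those genes with any peak in the body it was higher than in 70.3%.

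IL6ST, the signal-transducing receptor shared by the IL6 family, had no peak in its 59.9 kb or in the 500 kb on either side. The nearest peak, named for MTREX, was 631 kb downstream of its start and had a score of 59.9. The 2 receptors thus have nearly equal lengths and stood in regions with very different peak numbers, 23 around IL6R and 0 around IL6ST. Chromosome 5, where IL6ST lies, held 5.88 per Mb, close to the genome's 5.83, and 25.0% of its protein-coding genes were named. Of protein-coding genes of 50 to 100 kb, 35% (1039 of 2967) were named by a peak. Of the 4 members in this class IL6R and PTPN11 were named, and IL6ST and STAT3 were not.

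No peak was named for any of the kinase genes, and none was centred inside them. JAK1 is the longest of the 10 genes, at 235 kb, and the nearest peak was 101 kb upstream of its start, named for AK4 with a score of 38.9. It was the single peak in JAK1 and its 500 kb flanks. JAK2 (146 kb) had no peak in its body while its flanks held 18, or 18 per Mb, beside 8.58 per Mb over chromosome 9. Of these 18 peaks, 8 were named for CDC37L1, with scores of 35.8 to 80.0, and the nearest to JAK2 was 136 kb upstream of its start, named for MIR101-2, with a score of 91.8. JAK2 and PIAS1 have nearly the same length, 146 and 144 kb, and held 0 and 21 peaks. Of protein-coding genes of 100 kb or more, 37.7% (1320 of 3503) were named, and of the 3 members in this class PIAS1 was.

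TYK2 (30.1 kb), the kinase that also serves the interferon receptors, stood farthest from a peak of all 10 genes. The nearest peak, named for ZNF439, was 1475 kb upstream of its start with a score of 37.9. TYK2 lies on chromosome 19, where 5.42% of the 1384 protein-coding genes were named, rank 21 of the 23 chromosomes compared. For its length class, 20 to 50 kb, the share over all chromosomes was 22.7% (1056 of 4655).

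STAT3, the transcription factor on which the pathway converges, had no peak in its 75.2 kb. The nearest peak was 352 kb upstream of its start, named for EZH1, with a score of 38.6, and 2 peaks lay within 500 kb. SOCS3, a feedback inhibitor that STAT3 induces, is on the same chromosome and also had no peak in its 3.3 kb. Its nearest peak, named for TNRC6C-AS1, was 271 kb downstream with a score of 45.8, and 4 peaks lay within 500 kb, among them 2 named for TNRC6C with a highest score of 82.5. Chromosome 17 had the highest peak density of the 23 chromosomes compared, 15.3 per Mb, beside the 2 and 4 per Mb in the flanks of STAT3 and SOCS3. The share of its protein-coding genes that were named was 16.3%, rank 19, and how peak density varies along the chromosome was not tested. A gene without a peak in the list has no score, so these 7 genes show that no peak was called at them and give no level of mERG signal.

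PIAS1, a SUMO ligase that binds STAT proteins and restrains their activity on DNA, held 14 of the 21 member peaks. The gene spans 144 kb at chr15:68346647-68490941 (hg19, plus strand). Among all 5011 genes named in the list, 95.6% had fewer peaks than PIAS1 and 97.3% had a lower highest score, and the median gene had 2 peaks. The 14 peaks had scores of 33.5 to 119 with a median of 46.0, beside a median of 40.9 over all peaks. All 14 were intronic and downstream of the TSS, from 4.34 to 71.0 kb away. Intron 1 held 6 of them and intron 2 held 8, the introns that together make up 60.4% of the gene.

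The strongest PIAS1 peak lay in intron 2 at chr15:68403235-68404666, 57.4 kb from the TSS. It had a score of 119, rank 252 of the 18070 peaks, and at 1432 bp it was also the widest of the 21 member peaks, whose median width was 511 bp beside 400 bp over all peaks. The next strongest lay in intron 1 at chr15:68375052-68375791, 28.8 kb from the TSS, with a score of 98.2 and rank 425. The peak closest to the TSS had a score of 79.4 and the one in intron 1 on a HAL1 repeat had 71.8. The central 201 bases of the strongest pair are shown, since they are the strongest mERG peaks at any of the 10 genes (chr15:68403850-68404050 and chr15:68375321-68375521, hg19, plus strand, GGAA and TTCC in capitals).
PIAS1 intron 2 peak: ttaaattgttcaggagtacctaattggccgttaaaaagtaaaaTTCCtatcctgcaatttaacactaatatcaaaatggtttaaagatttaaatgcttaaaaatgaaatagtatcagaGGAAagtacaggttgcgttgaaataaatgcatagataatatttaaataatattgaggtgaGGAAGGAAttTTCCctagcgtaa
PIAS1 intron 1 peak: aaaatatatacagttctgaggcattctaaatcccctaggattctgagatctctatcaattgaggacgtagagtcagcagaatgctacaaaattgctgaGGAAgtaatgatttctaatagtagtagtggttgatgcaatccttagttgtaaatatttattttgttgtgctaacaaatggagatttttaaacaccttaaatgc
The intron 2 window held 5 copies of GGAA, the most of any window among the 21 member peaks, and had a GC content of 28.9%. The intron 1 window held 1 copy, close to the peak centre, and had a GC content of 33.3%. Neither contained the ETS core CCGGAAGT or the STAT site.

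Peaks continued through the rest of PIAS1 under another name. In its second part, from 77.8 to 127 kb after the gene start, 7 further peaks lay in introns 2, 6, 7, 8 and 11 and were named for CALML4, the gene whose TSS lies beyond the 3' end of PIAS1 and is closer to them. These 7 were all of the peaks that the list named for CALML4. Their scores ran from 35.0 to 69.5 with a median of 52.7, within the range of the peaks named for PIAS1. By position, PIAS1 thus held 21 peaks, all in introns, with a median gap of 6.43 kb between neighbouring centres and a largest gap of 14.5 kb. Outside this run the next peak upstream was 340 kb away, named for SKOR1, and the next downstream 43.3 kb away, named for CLN6. The density inside the gene was 146 per Mb, beside 14 per Mb in the flanks and 11.2 per Mb over chromosome 15. It was higher than in 97.2% of the 6470 protein-coding genes of at least 50 kb, and higher than in 92.8% of those with any peak in the body, whose median was 23.3 per Mb. Chromosome 15 was also the chromosome with the highest share of named protein-coding genes, 36.1%.

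The genes most like PIAS1 in this list, with the same 14 peaks, a length within 20% and the closest highest score, were PTPN9 (highest score 103, 116 kb), GATAD2B (94.8, 134 kb) and HOMER2 (169, 149 kb). PTPN9 and HOMER2 are on chromosome 15, as PIAS1 is, and GATAD2B is on chromosome 1. Of the 1200 protein-coding genes with a length within 20% of that of PIAS1, 40.6% were named by a peak and 3.75% (45) by at least 14.

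PTPN11 encodes the phosphatase SHP2, which is recruited to IL6ST and also couples it to the RAS-MAPK cascade. It was named by 6 peaks, more than 82.9% of named genes had, all inside the 91.6 kb gene at chr12:112856155-112947722 (hg19, plus strand). The scores ran from 36.5 to 76.8 with a median of 43.2. The 2 strongest, 76.8 and 61.6, both lay in intron 1, at 5.16 and 13.4 kb from the TSS. Intron 6 held 2 peaks with almost equal scores, 42.53 and 42.46, intron 9 held 1 with 36.5, and the remaining peak was in the 3' UTR, 90.8 kb from the TSS, with 43.8. The GC content of the central windows had a median of 39.6% over these 6 peaks, beside 37.3% over the 21 member peaks and 38.3% over all peaks. Unlike at PIAS1 and IL6R, no peak in the PTPN11 body was named for another gene. The density was 65.5 per Mb inside PTPN11, 20 per Mb in its flanks and 9.62 per Mb over chromosome 12. The neighbour named by most peaks within 500 kb was HECTD4, with 14 peaks and a highest score of 70.2.

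**Figure D1:**
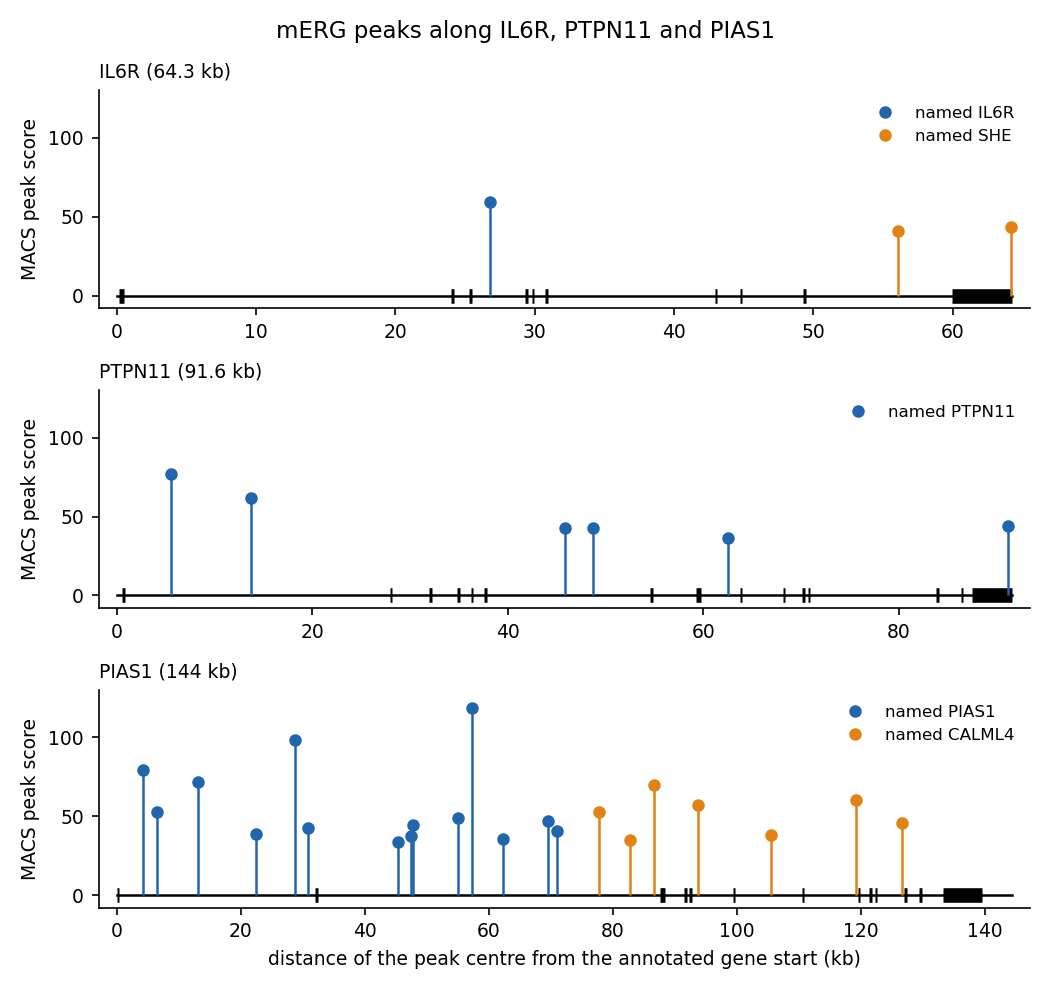
Score of each mERG peak against the distance of its centre from the annotated gene start in kb, for IL6R, PTPN11 and PIAS1; black bars on the baseline are exons, and colours give the gene that the list names for the peak. The PIAS1 peaks run from 4.27 to 127 kb, and those from 77.8 kb on are named CALML4.

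The locations of the 21 member peaks were set beside those of the whole list. In introns lay 20 of the 21 (95.2%, Wilson 95% interval 77.3 to 99.2%), beside 87.6% of all peaks, and 0 of 21 lay at a promoter, beside 0.277% (50 peaks) of all. All 21 were downstream of the TSS of their gene (100%, interval 84.5 to 100%), beside 75.4% of all peaks. All 21 also lay inside the body of their gene, where a peak is downstream of the start by position. Of the 21, 20 come from PIAS1 and PTPN11, so they are not independent. The intervals over the members' peaks treat them as if they were, and no conclusion is drawn from these intervals. The median distance to the TSS was 45.5 kb for the members' peaks and 27.8 kb for all peaks, and 3 of 21 (14.3%) and 20.1% were within 10 kb. Of the 30 peaks inside the 3 genes, 9 (30%) were named for another gene. Among all peaks inside protein-coding genes the share was 29.1%, close to that of the members.

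Scores of the members' peaks were moderate within this list. Their median was 44.6, beside 40.9 for all peaks, and 8 of 21 (38.1%, interval 20.8 to 59.1%) reached 50, beside 25.0% of all. These 8 were 5 peaks of PIAS1, 2 of PTPN11 and the peak of IL6R. The highest score per gene was 119, 76.8 and 59.4 for PIAS1, PTPN11 and IL6R, all above the median of 44.5 over the named genes. A highest score tends to rise with the number of peaks, here 14, 6 and 1, beside a median of 2 per named gene. None came near the highest score of the list, 592.

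The letters GGAA were found within 100 bp of the centre in 20 of the 21 member peaks (95.2%, interval 77.3 to 99.2%) and in 83.8% of all peaks. The exception was a PTPN11 peak in intron 6. Windows 2000 bp away from the members' peaks held them in 33 of 42 cases (78.6%), and those of all peaks in 79.6%, so that most windows of this size hold these 4 letters with or without a peak. The ETS core CCGGAAGT was in 0 of 21 member windows and in 2.62% of all peak windows. In windows 2000 bp away it was in 2 of 42 (4.76%) for the members' peaks and in 2.98% for all peaks. The STAT site TTCNNNGAA was in 2 of 21 member windows, at IL6R and at a PIAS1 peak in intron 2 with a score of 44.6. Over all peaks its share was 7.14%, and 2000 bp away it was 6.41%. Windows 2000 bp away from the members' peaks held the STAT site in 4 of 42 cases (9.52%), the same share as in the member peaks. Annotated repeats lay at the centre of 11 of the 21 member peaks (52.4%, interval 32.4 to 71.7%), beside 42.4% of all. LINE elements made up 8 of these 11 (38.1% of the 21, interval 20.8 to 59.1%, beside 18.0% of all peaks), and 7 of the 8 were at PIAS1, so they share 1 gene.

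Over a wider list of 95 genes of the IL6 and JAK-STAT pathway, which includes the 10 members, 29 genes (30.5%) were named by at least 1 peak, and 26 of the 85 outside the members (30.6%), beside 21% of all protein-coding genes and 16.6% of all genes. The median length was 36.7 kb in the wider list and 27.5 kb over protein-coding genes. Gene length differed between groups, and genes of 50 kb or more were named more often than shorter ones: 3 of 36 genes under 20 kb (8.33%), 2 of 15 of 20 to 50 kb (13.3%), 11 of 20 of 50 to 100 kb (55%) and 13 of 24 of 100 kb or more (54.2%) were named. Over all protein-coding genes the shares in these classes were 8.07%, 22.7%, 35% and 37.7%, which gives 23.5% when weighted to the lengths of the 95 genes. The same weighted share is set beside each group here. The groups were chosen with earlier results of these data known, and the weighting after seeing the data. Differences between groups and these shares are therefore descriptions only and were not tested. None of the 10 IL6-family ligand genes was named, beside 9.53% of protein-coding genes at the same lengths. None of the 4 Janus kinase genes was named either, JAK3 included, beside 30.2%. Beside IL6R, 1 of the other 7 receptor genes was named, LIFR, with 3 intronic peaks of low score (34.2 to 36.5). By position the LIFR body held 7 peaks of any name. The receptor genes thus came to 2 of 8 (25%), close to the 28.9% of protein-coding genes at the same lengths. STAT3, STAT5A and STAT5B, neighbours on chromosome 17, were not named. Ligand, receptor, kinase and STAT genes together came to 3 of 29 (10.3%), beside 22.3%.

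Inhibitor and phosphatase genes, the members PIAS1 and PTPN11 included, came to 8 of 18 (44.4%), beside 24.7% of protein-coding genes at the same lengths. This group was also chosen with earlier results known, so its difference from the ligand, receptor, kinase and STAT genes was not tested. In the SOCS family 2 of 8 genes (25%) were named, beside 18.5%. SOCS7 had 7 intronic peaks (highest score 68.4) and SOCS4 had 1 (44.9), and the other 6, SOCS1 and CISH among them, had none. PIAS2 was named by 1 peak with a score of 36.6, 78.2 kb from its TSS, so that within its family the 14 peaks of PIAS1 had no counterpart. The family differs in setting, however. PIAS2 (117 kb) lies on chromosome 18, with 1.81 peaks per Mb, beside 11.2 on chromosome 15. PIAS3 (11.3 kb) and PIAS4 (31.7 kb, chromosome 19) are shorter and had none. Thus 2 of the 4 PIAS genes (50%) were named, beside 26.5%. Of the 6 phosphatase genes 4 (66.7%) were named, beside 31.9%. PTPN1 (3 peaks, highest score 63.1), PTPN2 (2 peaks, 58.7) and PTPRT (1 peak, 36.5) were named along with PTPN11, and PTPN6 and PTPRC were not. PTPN1 had the closest peak of these, 2.06 kb from its TSS.

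Downstream of the receptor complex, 7 of 12 adaptor and kinase genes (58.3%) were named, beside 30.8% of protein-coding genes at the same lengths. Among them PIK3R1, the regulatory subunit gene of PI3-kinase, was named by 8 peaks (highest score 49.2), of which 2 were intergenic and the farthest was 362 kb from the TSS, and its body held 6. MAP2K1, a kinase of the MAPK cascade, was named by 5, all intronic (highest score 47.0). Among 10 other receptors that use Janus kinases 4 were named (beside 28.0%), led by PRLR (highest score 56.2), IFNGR2 (54.6) and IFNAR1 (50.6). All 3 genes of STAT3 coactivators were named (beside 36.8%), EP300 with 3 peaks (80.6), NCOA1 with 1 (39.5) and CREBBP with 1 (37.9). Of 23 known STAT3 target genes 4 (17.4%) were named, CEBPD, BCL2L1, PIM1 and VEGFA, close to the 16.7% of protein-coding genes at the same lengths. BCL2L1, an inhibitor of apoptosis, had 5 intronic peaks with a highest score of 48.4. CEBPD had 17 peaks (highest score 59.5), all between 35.8 and 227 kb from its TSS and none in its own 1.25 kb body, and PIM1 had 1 peak (40.4) 7.69 kb away, so that these names rest on distance to the nearest TSS.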

How the data were processed

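ChIP-seq was performed in VCaP cells with 1 mERG library and 1 control library. By the submitters' processing notes, Bowtie2, Picard and HOMER were used with hg19; per the file headers the peaks came from MACS and were annotated with HOMER. The MACS version and threshold are not given in the sources used here. The peak score is the value the authors deposited, minus 10 log10 of the p-value from MACS, not scaled to depth. The other deposited values, peak start and end and the distance from the peak centre to the nearest TSS, are in bp.

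Each peak was assigned to the gene named beside it in the list. All 29989 genes with a curated RefSeq transcript (symbols from GRCh38.p14) served as background. GENCODE release 44 on GRCh37 gave gene bodies, exons and lengths, and its gene starts can differ slightly from the TSS of the list, and intron numbers refer to the MANE Select transcript. Lengths were found for 98.3% of the protein-coding genes. The 23 chromosomes compared were 1 to 22 and X. Sequences of 201 bp around 18037 peak centres were read from GRCh37, and GGAA, CCGGAAGT (at most 1 mismatch outside GGAA) and TTCNNNGAA were sought on both strands. Peaks per Mb were counted in the gene and 500 kb on either side. The share of protein-coding genes named in each length class was weighted to the number of a list's genes in that class, a step chosen after seeing the data. Shares have Wilson 95% intervals, which cover counting error only and treat peaks of the same gene as independent, and no test was made.

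Named genes were the 10 members; from the wider list every gene of the ligand, receptor, Janus kinase, STAT, SOCS, PIAS and phosphatase groups and up to 3 genes with the highest score in each other group; the neighbour of each named member with most peaks; and the 3 genes most like the member with most peaks. VEGFA, HIF1A, IL4R, MAPK3, MMP2, CALML4, SHE, CDC37L1, TNRC6C, SKOR1, CLN6 and the genes of the nearest peaks were named after their values were seen. A few items under this rule are not reported here. The members and lists were chosen with earlier results of these data known. The alternatives were a higher score, a shorter distance to the TSS, position in the gene body in place of the name, the list without extreme peaks, protein-coding genes, and whole peaks for the motif. The motif search, the intervals and the assignment to gene bodies were tested on simulated data. Python 3.11.15, NumPy 2.4.6, pandas 2.3.3 and Matplotlib 3.10.9 were used.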

Additional observations from a re-analysis of the deposited data

How the results depend on the processing

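Of 32 alternative values, 16 were within 1.5 times the reported count or within the interval of the reported share. PIAS1, PTPN11 and IL6R each kept at least 1 peak among the stronger 50% of peaks, at a score of 50 or more, by position in the gene body, and when the highest 1% of scores and peaks wider than 5 kb were left out. With a minimum score of 50 the members' peaks fell from 21 to 8 and the wider list's named genes from 29 to 13, and the share of the members' peaks in introns and with GGAA near the centre was 100% for each. Within 10 kb of the TSS there were 3 member peaks, at PIAS1 and PTPN11, and 13 named genes of the wider list. Within 1 kb there were 0 members, 0 member peaks and 0 genes of the wider list. The percent of all genes named was 16.6% in the full list, 10.3% with the stronger 50% of peaks, 6.05% at a score of 50 or more, 7.09% within 10 kb, 0.257% within 1 kb, 15.2% by gene body and 21.0% for protein-coding genes. GGAA was in 100% of the members' whole peaks, beside 94.9% of all whole peaks. The lower counts at a stricter score or distance follow from the smaller number of peaks kept, and the rises to 100% rest on 8 and 21 peaks. No paired analysis was possible because each side has 1 library. Read depth is unknown, so a gene without a peak may lie below what these libraries could detect.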

Other observations

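The chromosomes of the members differed widely in how many genes were named. On chromosome 15, which holds PIAS1, 36.1% of protein-coding genes were named, and on chromosome 12, which holds PTPN11, 28.0%. On chromosome 9, which holds JAK2, the share was 30.1%, and on chromosome 7, which holds IL6, 28.5%. Chromosome 1 holds both IL6R and JAK1 and had a share of 19.4%, with 23 peaks around the first gene and 1 around the second. The lowest shares of the 23 chromosomes compared were 2.71% on chromosome 16, 3.01% on X and 5.42% on chromosome 19. Of the wider list, SOCS1, IL27, CTF1, IL4R, MAPK3 and MMP2 lie on chromosome 16 and had no peak, while CREBBP, also there, had 1. The part of the chromosome in the members' counts was not tested.

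One gene of the wider list, the hypoxia factor gene HIF1A, had a peak inside its body although no peak was named for it. Counted by body, 27 genes of the wider list had a peak, since CEBPD, PIM1 and VEGFA had none inside and HIF1A had 1.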
